A study of Mus musculus with 8 samples.

Results

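Interferon-stimulated genes were followed here as a set of 34 named genes across all 8 arrays of the series. The members were fixed by name, and for each the array probe with the highest mean signal was read. Of the 34 genes, 32 had a probe on the array, out of 20660 genes with a named probe, and Mx1 and Mx2 were not analysed here. All 32 were well above background, by the scanner software's own mark, on at least 3 arrays, and 30 were so on all 8. Ifi44 and Ifit3 were well above background on 7 arrays.

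RNA came from LSK cells, the lineage-negative, Sca-1-positive, c-Kit-positive fraction of mouse bone marrow enriched for stem cells and early progenitors. Donor CD45.2+ stem cells on a C57BL/6 background, per the labels, carried Cre-ERT, a tamoxifen-inducible recombinase, with either wild-type or floxed Ezh2. They received a retrovirus encoding RUNX1S291fs, a truncated form of the transcription factor RUNX1, or an empty one. All were grafted into lethally irradiated mice beside wild-type CD45.1+ marrow, and Ezh2, the methyltransferase of Polycomb repressive complex 2, was deleted afterwards. At month 4 the CD45.2+ arrays were WT (empty vector, Ezh2 wild type), Ezh2Δ/Δ, RUNX1S291fs and RUNX1S291fs/Ezh2Δ/Δ, called double-mutant below. Another 2 arrays held double-mutant CD45.2+ LSK cells of moribund mice, 1 with myelodysplastic syndrome (MDS) and 1 with MDS and myeloid leukemia (MDS/ML). The last 2 arrays held wild-type CD45.1+ LSK competitor cells, at month 4, from RUNX1S291fs mice and from double-mutant mice. Per the labels, month 4 cells were pooled from 2 to 4 mice and each moribund array was a single mouse, of an age that the labels do not give. RUNX1S291fs was therefore expressed from a retrovirus rather than from its own locus, all cells had been through transplantation, and stage cannot be told apart from time after grafting or from the individual mouse.

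Each group had 1 array, so a difference between 2 arrays has no test, and p-values from the fit over all 8 arrays measure only the spread between these arrays. The share of probes marked well above background ran from 43.9% on CD45.1 cells from RUNX1S291fs mice, the dimmest array, to 55.3% on WT, and 0 were saturated. Slide 1 carried WT, double-mutant and MDS, slide 2 Ezh2Δ/Δ, RUNX1S291fs and both CD45.1 arrays, and slide 3 MDS/ML. Ezh2 stood at 3.10 to 4.01 on all 8 arrays, deleted ones included, and where the probe lies relative to the deleted part is not stated in the labels or file headers, so it does not check the labels. Ddx3y, a Y-linked gene, stood at 1.74 on Ezh2Δ/Δ and 1.57 on MDS/ML and at -5.50 or below on the other 6 arrays, and Xist was the reverse, so comparisons of those arrays also cross sex. Of the sort markers, Kit ranged from 4.06 to 5.11. Ly6a, which encodes Sca-1, stood at 0.53 on MDS and 1.18 on MDS/ML against 3.17 to 4.14 on the month 4 arrays. Cd34 (4.25 and 3.76 against 7.54 to 8.18) and Flt3 (-2.34 and -1.28 against 3.23 to 5.90) were likewise low on both moribund arrays. Ly6a is itself interferon-inducible.

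Interferons are secreted signals of antiviral defence. Type I interferons bind the IFNAR1 and IFNAR2 receptor, whose kinases activate signal transducers that include STAT2, which joins IRF9 in a complex that binds the interferon-stimulated response element (ISRE) and switches on a large set of target genes. Interferon gamma binds IFNGR1 and IFNGR2 and acts mainly at the gamma-activated site (GAS). In hematopoietic stem cells, interferons are known to drive cells out of quiescence, and stem cells are known to keep a basal set of these genes expressed. In bulk RNA such as this, fewer cells of a type and less RNA per cell cannot be told apart.

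The ISRE and the GAS were looked for in the promoters of RefSeq's table (GRCm38.p6), which spans 250 bases before to 50 bases after each gene start and held 25 of the 34 genes. Promoters of Dhx58, Zbp1, Oas2, Mx1, Mx2, Rtp4, Parp14, Ifi27l2a and Usp18 were not analysed here. The ISRE core was searched as GAAANNGAAA on both strands, where overlapping matches were counted separately, and the GAS as TTCNNNGAA, which is its own reverse complement. The core was present for 12 of the 25 members, against 3.99% of 27025 genes and 3.44% of 32851 promoters in the table. Those were Ifih1, Ddx58, Eif2ak2, Oas3, Ifit1, Ifit3, Gbp2, Gbp3, Rsad2, Bst2, Isg15 and Stat2. A GAS match was present for 7 of 25, Eif2ak2, Adar, Ifit2, Isg20, Bst2, Ifi35 and Irf1, against 9.55% of genes and 8.3% of promoters. Such a match is a description of letters, not a site shown to be in use.

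The 150 bases before the start of 5 members are printed 5′ to 3′ on the gene's strand because these 5 went different ways on the arrays of moribund mice although each holds the core. Capitals mark the ISRE core matches, 3 overlapping ones for Isg15, 2 overlapping ones each for Bst2 and Gbp3, 2 separate ones for Ifit1 and 1 for Rsad2. The windows are chr4:156200819-156200968 (minus strand) for Isg15, chr8:71537473-71537622 (minus) for Bst2, chr3:142559894-142560043 (plus) for Gbp3, chr19:34640739-34640888 (plus) for Ifit1 and chr12:26456453-26456602 (minus) for Rsad2.
Isg15: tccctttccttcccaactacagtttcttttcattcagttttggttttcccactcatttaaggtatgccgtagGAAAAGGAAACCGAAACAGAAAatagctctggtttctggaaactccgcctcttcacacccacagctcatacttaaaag
Bst2: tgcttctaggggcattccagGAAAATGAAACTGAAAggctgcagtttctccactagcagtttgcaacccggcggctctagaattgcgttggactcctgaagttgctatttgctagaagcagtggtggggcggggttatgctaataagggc
Gbp3: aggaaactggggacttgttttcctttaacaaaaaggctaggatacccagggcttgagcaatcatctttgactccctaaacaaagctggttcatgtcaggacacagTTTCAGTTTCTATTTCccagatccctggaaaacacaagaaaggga
Ifit1: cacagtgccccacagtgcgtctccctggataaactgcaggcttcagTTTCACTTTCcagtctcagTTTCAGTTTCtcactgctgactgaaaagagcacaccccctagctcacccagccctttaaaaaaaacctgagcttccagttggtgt
Rsad2: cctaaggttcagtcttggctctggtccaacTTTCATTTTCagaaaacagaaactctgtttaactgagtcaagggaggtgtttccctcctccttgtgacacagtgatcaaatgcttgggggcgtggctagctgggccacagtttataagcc

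**Figure D1:**
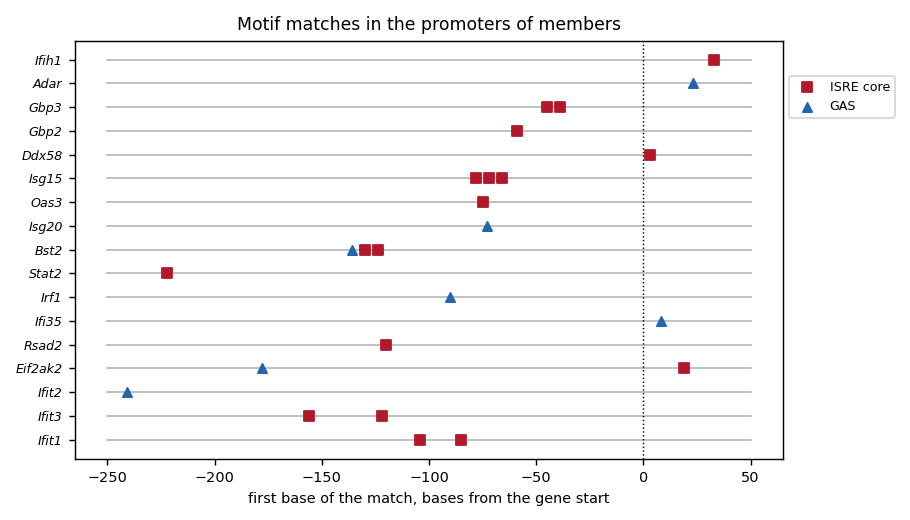
Each line is the promoter of a member with at least 1 match, from 250 bases before to 50 bases after the gene start (x axis, bases), with ISRE core matches as squares and GAS matches as triangles at their first base. The ISRE matches of Isg15 start at positions -78, -72 and -66 and those of Gbp3 at -45 and -39, while those of Ifih1 (33), Eif2ak2 (19) and Ddx58 (3) lie after the start.

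Across the 8 arrays the members as a group were highest on WT and lowest on MDS. The median member level, in log2 units with each array's 75th percentile of probes at 0, was 2.70 on WT, 2.32 on Ezh2Δ/Δ, 1.85 on RUNX1S291fs and 1.64 on the double-mutant array. It was 0.41 on MDS, 1.82 on MDS/ML, 1.34 on CD45.1 cells from RUNX1S291fs mice and 2.49 on CD45.1 cells from double-mutant mice. Of 32 members, 20 had their lowest level of the 8 arrays on MDS, where 30% of the 13545 tested genes with a value on all 8 arrays did. On WT, 12 members had their highest level, against 7.15% of genes. The wild-type arrays themselves spread widely: over the 3 of them, the median range of a member was 1.02, from 0.15 for Ifi35 and 0.21 for Trim25 to 3.15 for Ifi44.

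**Figure D2:**
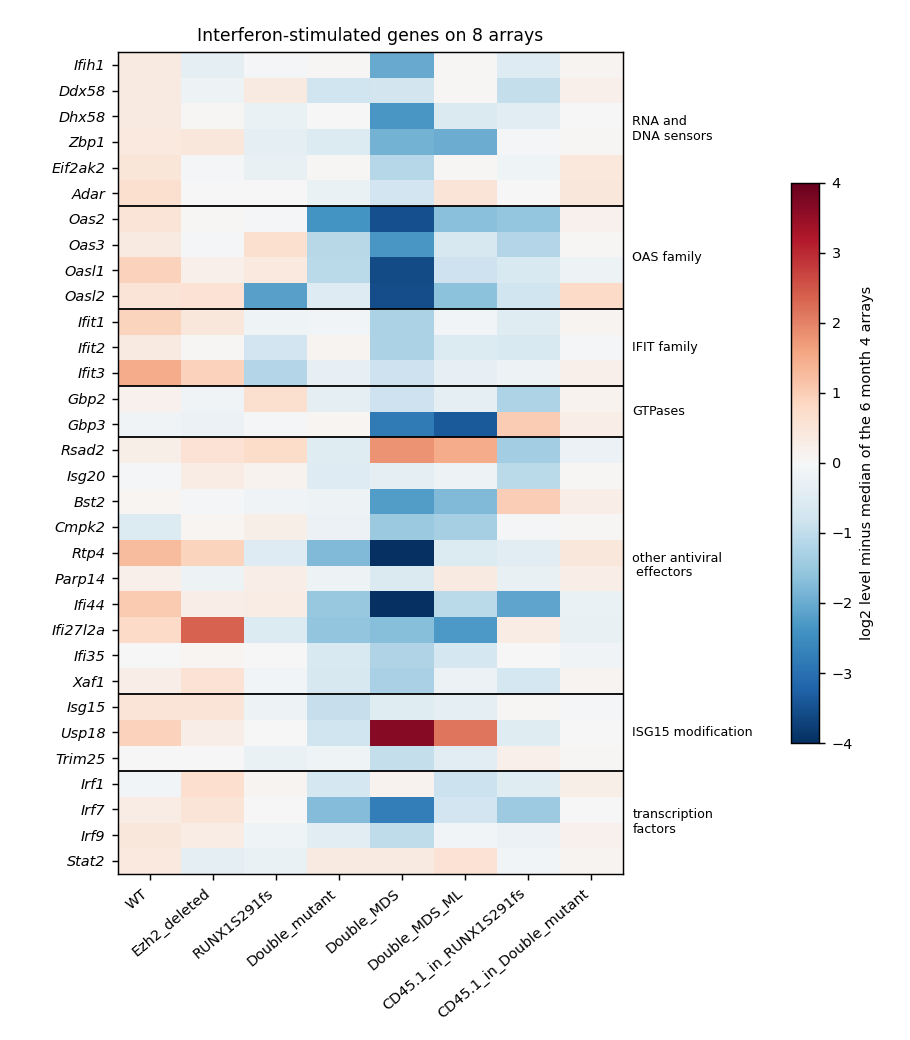
Rows are the 32 members grouped by role and columns are the 8 arrays. Colour is the log2 level minus the gene's median over the 6 month 4 arrays, from -4 (blue, also for lower values) to 4 (red, also for higher values). The MDS column is blue for most rows, and Usp18 and Rsad2 are red on both moribund arrays.

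Members moved together to different degrees. The median Pearson correlation over the 496 pairs of members was 0.58 across the 8 arrays, with 83.06% of pairs positive, against 0.04 and 52.71% over all pairs of genes tested. Over the 6 month 4 arrays alone it was 0.44, with 76.61% positive. These points share the array scaling and the cell mixture of each array, and the values are a description. Closest to the mean of the other members were Irf9 (r = 0.97), Oas2, Rtp4 and Irf7 (0.96 each), Ifi44 (0.95), and Oasl1, Xaf1 and Ifit1 (0.94 each). Irf1 (0.28), Rsad2 (-0.35), Stat2 (-0.38) and Usp18 (-0.57) did not follow that mean, over the same 8 arrays.

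The transcription factors of the pathway split in this way. Irf7, the factor that amplifies type I interferon production, stood at 0.07 on WT, 0.30 on Ezh2Δ/Δ, -0.21 on RUNX1S291fs and -1.95 on the double-mutant array. It was at -3.00 on MDS, -0.99 on MDS/ML, -1.67 on CD45.1 cells from RUNX1S291fs mice and -0.24 on those from double-mutant mice. The double-mutant and MDS levels of Irf7 lay below all 3 wild-type arrays, and the MDS/ML level did not. Irf9, the DNA-binding partner of STAT2, ran from 3.99 on WT and 3.85 on Ezh2Δ/Δ through 3.36 on RUNX1S291fs to 3.09 on the double-mutant array and 2.52 on MDS. Its levels were 3.44 on MDS/ML, and 3.31 and 3.72 on CD45.1 cells from RUNX1S291fs and double-mutant mice. Both factors thus had the same lowest pair of CD45.2+ arrays, double-mutant and MDS.

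Stat2, the type I-specific signal transducer, varied little, at 2.05 on WT, 1.26 on Ezh2Δ/Δ, 1.39 on RUNX1S291fs, 2.00 on the double-mutant array, 2.01 on MDS and 2.23 on MDS/ML. The CD45.1 arrays gave Stat2 levels of 1.54 (RUNX1S291fs mice) and 1.76 (double-mutant mice). Irf1, a factor induced by interferon gamma, stood at 5.36 on WT, 6.14 on Ezh2Δ/Δ, 5.58 on RUNX1S291fs, 4.78 on the double-mutant array, 5.61 on MDS and 4.60 on MDS/ML. It was at 4.98 and 5.70 on CD45.1 cells from RUNX1S291fs and double-mutant mice. Neither Stat2 nor Irf1 was lowest on MDS.

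The OAS family of double-stranded RNA sensors, whose active enzymes make the activator of RNase L, gave some of the widest ranges. Oas2 stood at 2.73 on WT, 2.26 on Ezh2Δ/Δ, 2.18 on RUNX1S291fs and -0.18 on the double-mutant array. On MDS it was at -1.29, on MDS/ML at 0.54, and on CD45.1 cells at 0.67 (RUNX1S291fs mice) and 2.40 (double-mutant mice). All 3 double-mutant arrays lay below the 3 wild-type arrays for Oas2, MDS/ML only narrowly (0.54 against 0.67), whereas each single mutant lay among them. Its neighbour on the chromosome, Oas3, was at -0.32 on WT, -0.74 on Ezh2Δ/Δ, -0.05 on RUNX1S291fs, -1.78 on the double-mutant array, -3.01 on MDS and -1.32 on MDS/ML. CD45.1 cells gave -1.85 and -0.62 for Oas3 in RUNX1S291fs and double-mutant mice, so that only the MDS array lay below the wild-type range.

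Oasl1, which restrains Irf7 translation, was at 3.77 on WT, 3.03 on Ezh2Δ/Δ, 3.23 on RUNX1S291fs, 1.76 on the double-mutant array, -0.74 on MDS and 2.02 on MDS/ML. Its CD45.1 levels were 2.23 and 2.64 in RUNX1S291fs and double-mutant mice, again with all 3 double-mutant arrays below the wild-type range. MDS/ML was below that range only narrowly (2.02 against 2.23). Oasl2, its neighbour and an OAS-like protein with ubiquitin-like domains, was at 2.72 on WT, 2.78 on Ezh2Δ/Δ, 0.04 on RUNX1S291fs, 1.68 on the double-mutant array, -1.34 on MDS and 0.57 on MDS/ML. The CD45.1 levels of Oasl2 were 1.40 and 2.97 in the same order. Here the RUNX1S291fs array lay below both wild-type arrays of its slide, and the double-mutant array at month 4 lay inside the wild-type range.

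Among the other antiviral effectors, Ifi44, a cytoplasmic protein induced by type I interferon, had the widest range of all. It stood at 1.28 on WT, 0.51 on Ezh2Δ/Δ, 0.55 on RUNX1S291fs, -1.28 on the double-mutant array and -0.82 on MDS/ML. On MDS it was not well above background (-5.42), and CD45.1 cells gave -1.87 (RUNX1S291fs mice) and -0.02 (double-mutant mice). Since the 3 wild-type arrays spanned 3.15 for Ifi44, the double-mutant level at month 4 did not leave their range. Rtp4, a chaperone of receptors with antiviral activity, was at 4.35 on WT, 3.98 on Ezh2Δ/Δ, 2.58 on RUNX1S291fs, 1.31 on the double-mutant array, -0.93 on MDS and 2.55 on MDS/ML. Its CD45.1 levels were 2.65 and 3.53 in RUNX1S291fs and double-mutant mice. For Rtp4 all 4 arrays with RUNX1S291fs lay below all 4 others, with RUNX1S291fs and MDS/ML just below the lowest wild-type array.

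Ifi27l2a, a mitochondrial protein of the ISG12 family, was at 4.01 on WT, 5.60 on Ezh2Δ/Δ, 2.70 on RUNX1S291fs, 1.66 on the double-mutant array, 1.53 on MDS and 0.95 on MDS/ML. CD45.1 cells gave 3.55 and 2.93 in RUNX1S291fs and double-mutant mice. It was the member that was at least 2-fold higher on Ezh2Δ/Δ than on WT, while the arrays with RUNX1S291fs were all below the rest. Bst2, tetherin, which holds virus particles at the cell surface, stood at 4.62 on WT, 4.49 on Ezh2Δ/Δ, 4.41 on RUNX1S291fs, 4.34 on the double-mutant array, 2.33 on MDS and 2.78 on MDS/ML. On CD45.1 cells Bst2 was at 5.53 and 4.82 in RUNX1S291fs and double-mutant mice, and both moribund arrays lay below all month 4 arrays.

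Gbp3, a guanylate-binding GTPase of cell-autonomous defence, was nearly flat over the CD45.2+ arrays at month 4, with 3.18 on WT, 3.07 on Ezh2Δ/Δ, 3.24 on RUNX1S291fs and 3.38 on the double-mutant array. It was at 0.49 on MDS and -0.06 on MDS/ML, and stood at 4.33 and 3.58 on CD45.1 cells of RUNX1S291fs and double-mutant mice. Gbp2 covered 1.28 to 3.15, lowest on CD45.1 cells from RUNX1S291fs mice. Guanylate-binding proteins form a family of similar sequences, so that probes of 1 gene may read RNA of another.

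The opposite pattern was seen for Usp18 and Rsad2. Usp18, which removes ISG15 from proteins and blocks signalling at IFNAR2, was at 1.17 on WT, 0.53 on Ezh2Δ/Δ, 0.25 on RUNX1S291fs, -0.55 on the double-mutant array, 3.89 on MDS and 2.38 on MDS/ML. CD45.1 cells gave -0.24 in RUNX1S291fs mice and 0.26 in double-mutant mice. Its level was thus the lowest of all 8 on the double-mutant array at month 4 and the highest on the moribund arrays of the same genotype. Rsad2, viperin, which makes a chain-terminating nucleotide, was at 0.93 on WT, 1.27 on Ezh2Δ/Δ, 1.42 on RUNX1S291fs, 0.22 on the double-mutant array, 2.50 on MDS and 2.19 on MDS/ML. CD45.1 cells gave -0.70 and 0.46 for Rsad2 in RUNX1S291fs and double-mutant mice. The gene next to Rsad2 on chromosome 12, Cmpk2, encodes a mitochondrial nucleotide kinase. Cmpk2 went the other way, at -0.99 on MDS and -0.85 on MDS/ML against -0.07 to 0.73 on the month 4 arrays, and its correlation with Rsad2 over the 8 arrays was -0.68.

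**Figure D3:**
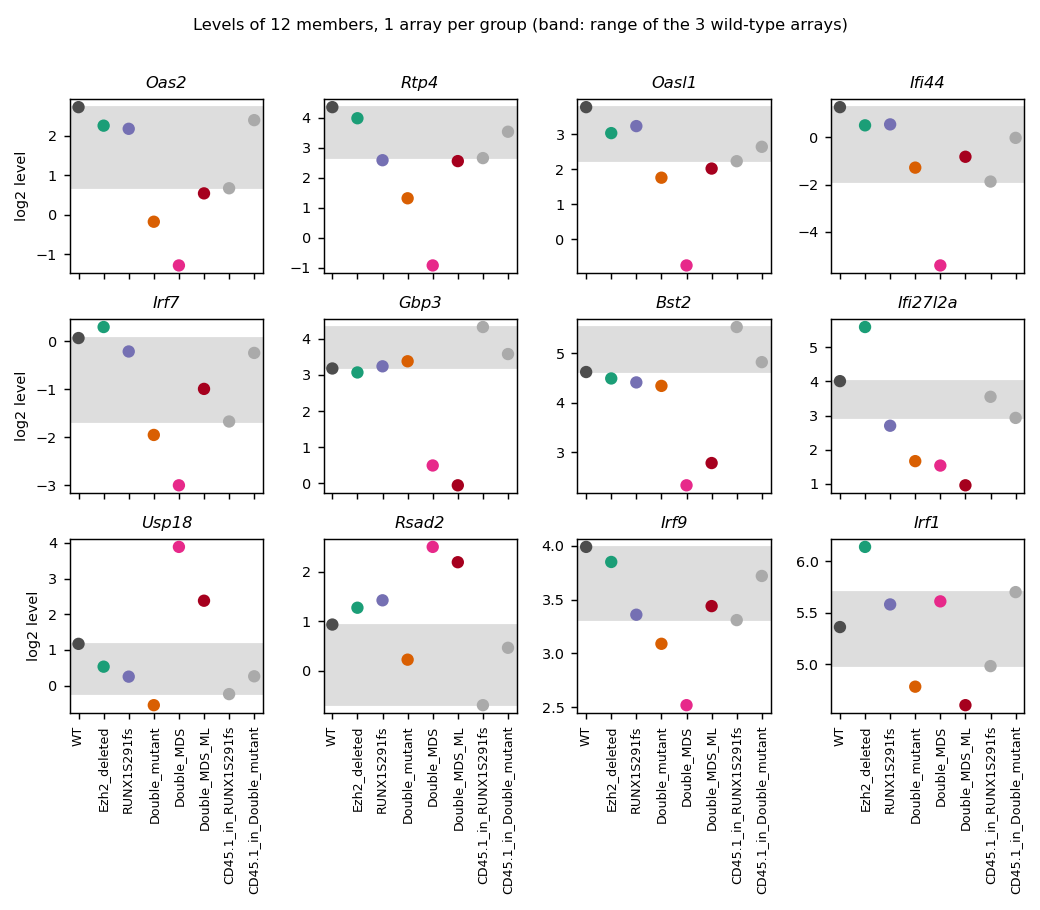
Points give the log2 level (y axis, array's 75th percentile at 0) of 12 members on each of 8 arrays (x axis), with 1 array per group and the grey band spanning the 3 wild-type arrays. Oas2, Rtp4 and Oasl1 lie below the band on all 3 double-mutant arrays, on MDS/ML only narrowly, and Rtp4 also on RUNX1S291fs. Gbp3 and Bst2 lie far below it on the moribund arrays, and Usp18 and Rsad2 lie above it there.

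ISG15 itself, a ubiquitin-like modifier, and its ligase Trim25 behaved differently from Usp18. Isg15 ranged from 1.97 on the double-mutant array to 3.40 on Ezh2Δ/Δ, with 2.40 on MDS and 2.52 on MDS/ML, and all 4 arrays with RUNX1S291fs lay below all 4 others. Trim25 ranged from 4.07 on MDS to 5.23 on CD45.1 cells from RUNX1S291fs mice, and it too was lower on all 4 arrays with RUNX1S291fs than on the other 4.

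Among the sensors, Dhx58 (LGP2) had the widest range, at 1.29 on WT, 0.97 on Ezh2Δ/Δ, 0.64 on RUNX1S291fs, 0.91 on the double-mutant array, -1.40 on MDS and 0.33 on MDS/ML. CD45.1 cells gave 0.50 and 0.93 for Dhx58 in RUNX1S291fs and double-mutant mice, so both moribund arrays were the lowest. Ifih1 (MDA5) was at -0.45 on MDS and between 1.07 and 1.92 elsewhere. Ddx58 (RIG-I) was the exception, with 2.07 on MDS inside its range of 1.87 to 3.18. Zbp1, a sensor of Z-form nucleic acids, was at -1.41 on MDS and -1.51 on MDS/ML against -0.06 to 0.93 at month 4. Eif2ak2 (PKR, -0.25 to 1.39) and Adar (an RNA-editing enzyme, 1.99 to 3.41) were both lowest on MDS and highest on WT.

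The IFIT genes, whose proteins bind foreign RNA, stood below 0 on all 8 arrays. Ifit3 stood at -1.56 on WT, -2.12 on Ezh2Δ/Δ, -4.21 on RUNX1S291fs, where it was not well above background, -3.36 on the double-mutant array, -3.88 on MDS and -3.37 on MDS/ML. It was at -3.24 and -2.85 on CD45.1 cells from RUNX1S291fs and double-mutant mice, with all arrays carrying RUNX1S291fs below the others. Ifit1 (-3.62 to -1.48) and Ifit2 (-1.86 to -0.24) were lowest on MDS and highest on WT. Isg20, an exonuclease, covered 1.90 to 3.29, Ifi35 1.52 to 2.79, Xaf1, a pro-apoptotic protein, 0.33 to 2.19, and Parp14, an ADP-ribosyltransferase, 2.01 to 2.95.

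Month 4 comparisons with WT showed the fewest members apart for Ezh2 deletion alone. Ezh2Δ/Δ minus WT gave 1 of 32 members at least 2-fold higher (Ifi27l2a, 1.59 on the log2 scale) and 0 lower, beside 7.83% and 3.83% of the 14089 genes that either array marked well above background. The median member difference was -0.30, and -0.02 over all genes of the pair. Ezh2Δ/Δ was on another slide than WT, and B cell markers (7 of 7 measured at least 2-fold higher, mean level 1.5 against -3.39) and neutrophil markers (7 of 7, 4.52 against 0.61) moved with this pair, with their part not tested. RUNX1S291fs minus WT gave 0 members higher and 6 lower, beside 8.71% and 5.76% of 13971 genes. Those 6 were Oasl2 (-2.67), Ifit3 (at least -2.49, since it was not well above background on RUNX1S291fs), Rtp4 (-1.77), Ifi27l2a (-1.31), Ifit2 (-1.11) and Ifit1 (-1.04), so all 3 IFIT members were included. This pair crossed slides too, and WT was the highest of the 8 arrays for these 3 genes. Against the competitors of RUNX1S291fs mice, on the same slide, the differences were 0.33 for Ifit1, -0.16 for Ifit2 and at least -0.81 for Ifit3. The median member difference of RUNX1S291fs minus WT was -0.55, against 0.05 over all genes. Mast cell and basophil markers (8 of 8 at least 2-fold higher, mean level 1.92 against -2.41) and neutrophil markers (7 of 7, 2.59 against 0.61) were higher on this array too, and their part was not tested.

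On the double-mutant array 30 of 32 members were below WT, Gbp3 and Cmpk2 being the other 2. Double-mutant minus WT gave 0 members at least 2-fold higher and 12 lower, beside 10.6% and 7.9% of 14143 genes, with a median of -0.91 against 0.11. The 12 were Rtp4 (-3.05), Oas2 (-2.91), Ifi44 (-2.57), Ifi27l2a (-2.34), Irf7 and Oasl1 (-2.02 each), Ifit3 (-1.80), Usp18 (-1.72), Oas3 (-1.45), Isg15 (-1.41), Ddx58 (-1.16) and Oasl2 (-1.03). All 4 OAS genes were among them, with a median of -1.73, but of the 6 sensors only Ddx58. Both arrays of this pair were on slide 1. Neutrophil markers (7 of 7 with a probe at least 2-fold higher, mean level 6.08 against 0.61 on WT) and mast cell and basophil markers (8 of 8 higher, mean level 3.25 against -2.41) moved with this difference, and their part in it was not tested.

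A further comparison set double-mutant cells against wild-type CD45.1+ cells sorted from the marrow of double-mutant mice. Double-mutant minus these competitors gave 30 of 32 members below them, with a median of -0.59 against 0.06 over all genes. None was at least 2-fold higher and 8 were lower, beside 9.26% and 9.41% of 13870 genes. Those were Oas2 (-2.57), Rtp4 (-2.23), Irf7 (-1.72), Oasl2 (-1.29), Ifi44 and Ifi27l2a (-1.26 each), Oas3 (-1.16) and Ddx58 (-1.0). This pair and the comparison with WT share the double-mutant array. It also crosses slides, with double-mutant on slide 1 and its competitors on slide 2. Neutrophil markers were higher here too (7 of 7, mean level 6.08 against 0.03), as were mast cell and basophil markers (8 of 8). B cell (5 of 6, median difference -4.06), dendritic cell (4 of 7, -1.36) and T and NK cell markers (3 of 5, -1.53) were at least 2-fold lower. The part of these markers was not tested.

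RUNX1S291fs cells, against the competitors of RUNX1S291fs mice, showed another picture. That pair gave 8 members at least 2-fold higher and 3 lower, beside 8.73% and 12.4% of 12946 genes, with a median of 0.22 against -0.16. Ifi44 (2.41), Rsad2 (2.12), Gbp2 (1.87) and Oas3 (1.81) were highest, and Oasl2 (-1.36), Bst2 (-1.12) and Gbp3 (-1.09) were lowest. The competitor array of this pair was the dimmest of the series. After normexp correction and quantile normalization 10 members were higher and 1 lower, and the split of all genes turned, to 907 higher and 623 lower in place of 1130 and 1599. Megakaryocyte markers were higher on RUNX1S291fs than on its competitors (5 of 7 at least 2-fold, median difference 2.67), as were mast cell and basophil markers (5 of 8). Dendritic cell (5 of 6), monocyte and macrophage (4 of 6) and T and NK cell markers (4 of 6) were at least 2-fold lower, and their part was not tested. Both competitor populations are wild type, yet CD45.1 cells from double-mutant mice minus those from RUNX1S291fs mice gave 9 members at least 2-fold higher and 0 lower, beside 6.78% and 9.37% of 13250 genes. Ifi44 (1.84), Oas2 (1.73), Oasl2 (1.57) and Irf7 (1.43) led that difference between wild-type arrays. With normexp and quantile the members' counts were again 9 and 0, while all genes turned to 600 higher and 390 lower in place of 898 and 1242. Cell markers moved with it, neutrophil markers at 0.03 against 3.41 (mean level) and B cell markers at -0.78 against -2.96. Their part was not tested.

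**Figure D4:**
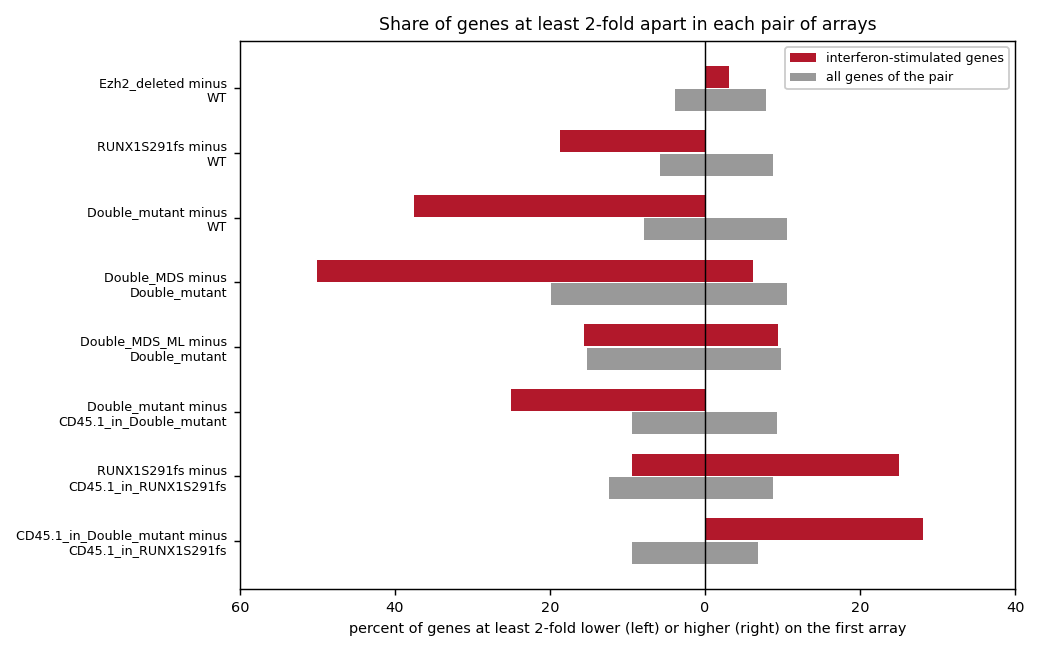
Bars give the percent of genes at least 2-fold lower (left) or higher (right) on the first array of each of 8 pairs, for the interferon-stimulated genes (32 in every pair, red) and for all genes of the pair (grey). The lower bar of the members is longest for MDS minus double-mutant (16 of 32) and double-mutant minus WT (12 of 32), and the pair of wild-type CD45.1 arrays has 9 of 32 members higher.

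Set against the range of the 3 wild-type arrays, the double-mutant array at month 4 had 15 of 32 members below the lowest and 0 above the highest, beside 24.4% and 26.8% of 13545 genes. Those below were Zbp1, Adar, Oas2, Oasl1, Ifit3, Bst2, Rtp4, Ifi27l2a, Ifi35, Isg15, Usp18, Trim25, Irf1, Irf7 and Irf9. Ezh2Δ/Δ had 4 below and 10 above (33.1% and 17.6% of genes), and RUNX1S291fs 11 below and 7 above (30.4% and 23.4%). For MDS the counts were 25 below and 2 above (44.9% and 26.7%), and for MDS/ML 15 below and 4 above (37.5% and 27.7%). Across genotypes, 7 members (Zbp1, Ifit3, Bst2, Rtp4, Ifi27l2a, Isg15 and Trim25) were lower on all 4 arrays with RUNX1S291fs than on all 4 without it, beside 4.88% of genes. Without the dimmest array that count was 13 of 32, beside 7.84% of genes.

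The 2 moribund mice differed from each other. MDS minus double-mutant gave 2 members at least 2-fold higher and 16 lower, beside 10.6% and 19.9% of 14064 genes, with a median of -0.91 against -0.22. With normexp and quantile it gave 3 higher and 12 lower, with a median of -0.49 against -0.08. In the main setting Usp18 (4.44) and Rsad2 (2.28) were the 2 higher, and Ifi44 (at least -3.40), Oasl2 (-3.02), Gbp3 (-2.88), Oasl1 (-2.50), Dhx58 (-2.31), Rtp4 (-2.24), Ifih1 (-2.07) and Bst2 (-2.01) were the lowest. All 4 OAS genes (median -1.87) and 4 of 6 sensors (median -1.27) were at least 2-fold lower. MDS/ML minus double-mutant gave 3 higher and 5 lower, beside 9.78% and 15.2% of 13788 genes, and its median of 0.12 lay above the -0.11 of all genes. Higher there were Usp18 (2.93), Rsad2 (1.97) and Rtp4 (1.24), and lower were Gbp3 (-3.44), Bst2 (-1.56), Zbp1 (-1.46), Cmpk2 (-1.13) and Oasl2 (-1.11). With normexp and quantile MDS/ML gave 4 higher and 3 lower. These pairs share the double-mutant array, and MDS/ML was alone on its slide.

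Both moribund arrays lay below all 6 month 4 arrays for 8 members, beside 17.4% of genes, and above all 6 for 2 members, beside 10% of genes. The 8 were Dhx58, Zbp1, Gbp3, Bst2, Cmpk2, Ifi27l2a, Ifi35 and Trim25, and the 2 were Rsad2 and Usp18. Markers of other cells differed as well. Megakaryocyte markers had mean levels of 3.90 on MDS and 3.67 on MDS/ML against -1.23 to 1.43 at month 4, with 6 of 7 at least 2-fold above the double-mutant array on each. Monocyte and macrophage markers were at least 2-fold below the double-mutant array for 6 of 6 on both (median differences -3.19 and -3.63), and mast cell and basophil markers for 5 of 8 on MDS (-3.30) and 6 of 8 on MDS/ML (-6.27). Neutrophil markers had 5.36 on MDS but -2.51 on MDS/ML, against 0.03 to 6.08. Among genes marking plasmacytoid dendritic cells, the main source of type I interferon, Cox6a2 (-2.59 and -1.26), Irf8 (1.87 and 1.59), Tcf4 (-0.07 and 1.61) and Ccr9 (-6.58 and -3.75) were below all month 4 arrays on MDS and MDS/ML. Siglech (9.26 and 8.38) and Klk1 (-5.94 and -6.40, well above background on 2 of the 8 arrays) were not. The 6 genes of that list with a probe had mean levels of -0.68 and 0.03 against 1.36 to 2.57, and 5 of 6 were at least 2-fold below the double-mutant array on MDS and 3 of 6 on MDS/ML. The part of these in the differences was not tested.

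The limma fit over all 8 arrays had terms for Ezh2 deletion, RUNX1S291fs and moribund stage, and none for CD45.1+ cells. Both competitor arrays thus entered as wild type beside WT, so the genotype terms overlap with CD45.2+ against CD45.1+ cells. In that fit 1 member passed an adjusted p of 0.05. That was Gbp3, lower at the moribund stage by a log2 effect of -2.93 (SE 0.51, adjusted p = 0.0413 by limma), in 2 of 2 moribund arrays. The stage term called 250 of 13553 genes (1.84%), 37 higher and 213 lower, or 66 and 153 with normexp and quantile, where Bst2 passed beside Gbp3 (-1.49, adjusted p = 0.0427). In the main setting, at an unadjusted p under 0.05 it held 5 of 32 members, beside 13.7% of genes. Usp18 had the largest positive effect, 3.40 (SE 0.71, adjusted p = 0.0731), and Zbp1 (-1.55, SE 0.35, 0.0916), Bst2 (-1.66, SE 0.44, 0.136) and Cmpk2 (-1.41, SE 0.40, 0.156) completed the 5. With the mean of its probes Zbp1 had -0.82 (adjusted p = 0.459 by limma). Rsad2 had an effect of 1.45 (adjusted p = 0.48 by limma), which turned to -0.11 (adjusted p = 0.999) without the double-mutant array. Without that array no month 4 array carried both genotypes, so stage was then set against the sum of both single effects. In all 25 of 32 effects were negative, with a median of -0.61 against -0.13 over all genes. The Gbp3 call was lost on leaving out any 1 of WT, Ezh2Δ/Δ, RUNX1S291fs, double-mutant, MDS, MDS/ML or the CD45.1 array of double-mutant mice (adjusted p 0.0575 to 0.423, effect -2.40 to -3.21). Without MDS/ML, Usp18 passed in its place (4.16, adjusted p = 0.0401).

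**Figure D5:**
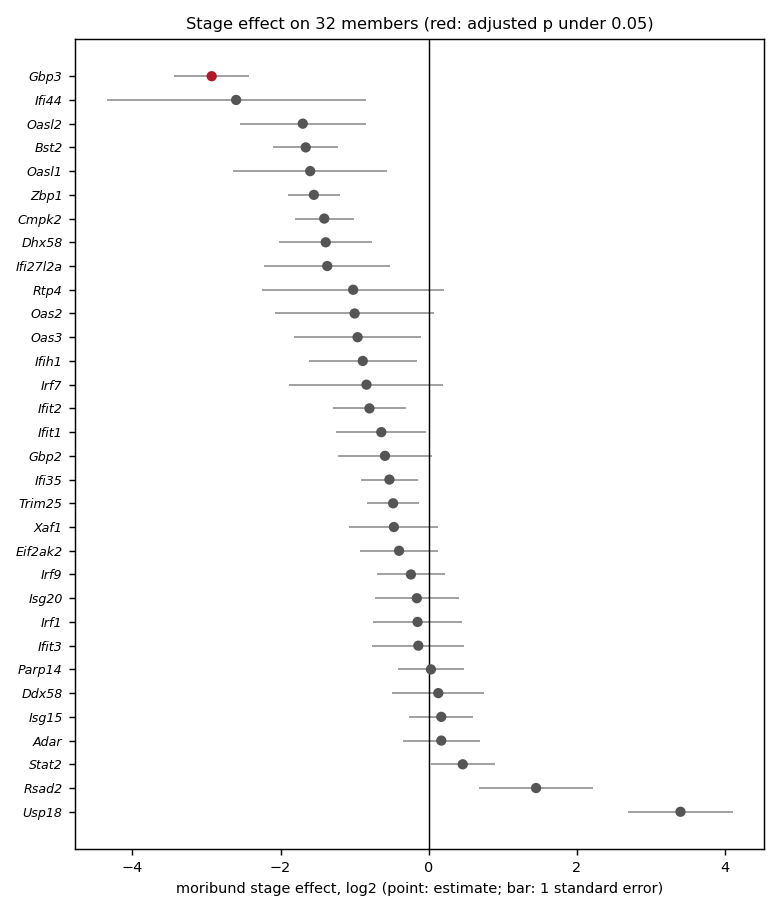
Points are the moribund stage effects (log2, x axis) of the 32 members in the limma fit over 8 arrays and bars are 1 standard error. Gbp3 at -2.93, in red, is the member with an adjusted p under 0.05, and Usp18 at 3.40 and Rsad2 at 1.45 lie on the other side of 0, where Rsad2 did not stay without the double-mutant array (-0.11).

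No member passed for either genotype or for their product. The Ezh2 term called 0 of 13553 genes (0%) by limma, 321 at an unadjusted p under 0.05, and 0 members were among those, with a median member effect of -0.07. RUNX1S291fs called 2 of 13553 genes (0.0148%), neither a member, and at an unadjusted p under 0.05 it held 4 members, beside 5.95% of genes. Those were Ifi27l2a (-2.05, SE 0.69), Oasl2 (-1.83, SE 0.69), Ifit3 (-1.49, SE 0.51) and Zbp1 (-0.69, SE 0.29), with adjusted p from 0.602 to 0.823. Of 32 members 24 had a negative RUNX1S291fs effect, and the median was -0.32 against 0.03 over all genes. A fit added after seeing the data took only the RUNX1S291fs and double-mutant arrays of month 4 and their competitors, with recipient genotype as a block. Its RUNX1S291fs term set carriers against competitors, and so also holds Ezh2 deletion on the double-mutant array and CD45.2+ against CD45.1+ cells. For that term 18 of 32 members had a negative effect, and the median was -0.14 against -0.05 over all genes. The product of both genotypes, which asks whether the double mutant departs from the sum of both single effects, called 0 of 13552 genes (0%) by limma, 886 at an unadjusted p under 0.05, 1 of them a member. That was Ifi27l2a, with -3.13 (SE 0.84, adjusted p = 0.689), and the median product effect was -0.71 over the members and 0.22 over all genes.

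The rest of the pathway was read from lists of 110 genes, of which 105 had a probe and 96 entered the fit. At the moribund stage 0 of 96 were called higher and 2 lower, with 61 of 96 effects negative and a median of -0.28, beside 1.84% of all genes called, 58.95% of effects negative and a median of -0.13. Ifngr2, a chain of the interferon gamma receptor, had an effect of -4.52 (SE 0.55, adjusted p = 0.0158) and stood at -1.90 on MDS and -3.16 on MDS/ML against 1.58 to 2.45 at month 4. Ifitm3, which blocks virus entry at membranes, had -2.33 (SE 0.35, adjusted p = 0.026) and stood at 0.83 and 1.40 against 3.45 to 5.34. Without the double-mutant array, where stage was set against the sum of both single effects, the stage term called 0 genes. Adjusted p by limma was then 0.2 for Ifngr2 and 0.256 for Ifitm3. The Ifngr2 call was also lost without WT (0.0507), and the Ifitm3 call without any 1 of WT, Ezh2Δ/Δ, RUNX1S291fs, MDS or the CD45.1 array of double-mutant mice (0.0541 to 0.0871). For the genotype terms and their product 0 of 96 were called.

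Of the receptors for type I interferon, Ifnar2 stood at 2.07 on MDS and 2.39 on MDS/ML against 3.43 to 3.66 at month 4 (effect -1.20, SE 0.32, adjusted p = 0.139 by limma). Ifnar1 was at 1.37 and 1.16 against 1.65 to 2.67. Ifngr1, the ligand-binding chain for interferon gamma, was highest on the double-mutant array at 6.90, and it was at 3.84 and 3.63 on MDS and MDS/ML against 4.52 to 5.66 on the other month 4 arrays. All of these receptor genes were thus lowest on both moribund arrays. Sting1, the adaptor of cytosolic DNA sensing, was at 2.22 and 1.87 there against 4.35 to 5.96 (effect -2.09, adjusted p = 0.055, or 0.0358 with normexp and quantile).

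Of 11 interferon ligands listed 9 had a probe, and Ifnb1, Ifna4 and Ifne were well above background on 0 arrays. Ifnl3 (-2.78 to -2.02) was marked well above background on 8 arrays, Ifna1 (-3.47 to -2.91) on 7, Ifna5 (-3.93 to -3.10) on 6, Ifna2 (-4.63 to -3.66) on 5, Ifng on 4 and Ifnk on 2. Among the inhibitors, Socs1 was at -1.04 on MDS and -0.82 on MDS/ML against 0.40 to 1.15, and Socs3 at 5.65 and 5.16 against 3.91 to 5.96. Of the guanylate-binding proteins outside the members, Gbp9 was at -0.18 on MDS and -0.65 on MDS/ML against -5.07 to -2.72 at month 4, and Gbp6 at -0.20 and -0.07 against -1.74 to -0.62. Gbp5 was at -0.65 and 0.42 against 0.78 to 1.88. Gbp7, at 0.07 and 0.89, lay within its month 4 range of -0.20 to 1.07, and Gbp4 was at -0.17 on MDS and -2.61 on MDS/ML against -4.59 to -1.31. Ifnar1, Ifnar2, Ifngr1 and Ifnb1 were named whatever their values, and Ifna1, Ifna2, Ifna4, Ifna5, Ifne, Ifnk, Ifnl3, Ifng, Ifngr2, Sting1, Ifitm3, Socs1, Socs3, Gbp4, Gbp5, Gbp6, Gbp7 and Gbp9 were chosen after their values were seen.

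Where a member had another probe, most but not all agreed in direction. Across the 8 arrays the correlation between the probe used and the other one was 0.97 for Ddx58 and Isg20, 0.93 for Ifih1 and Isg15, 0.84 for Cmpk2, 0.73 for Zbp1, 0.70 for Xaf1, 0.20 for Irf1 and 0.12 for Adar. The other Irf1 probe was well above background on 0 arrays. For Zbp1 the difference of MDS/ML minus double-mutant was -1.46 by the probe used and 0.58 by the other, for Xaf1 it was 0.42 and -1.15, and for Adar 0.78 and -0.70. Double-mutant minus WT was -0.92 and 0.22 for Adar, and 0.34 and -0.44 for Cmpk2. These 4 genes are therefore uncertain in those comparisons, whereas the Isg15 difference of double-mutant minus WT was -1.41 by 1 probe and -1.40 by the other.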

How the data were processed

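Total RNA (20 ng) was amplified and labelled with Cy3, per the labels' protocols, and hybridised to Agilent arrays (design 028005) read with Feature Extraction 10.7.1.1, per the file headers. The deposited intensity columns hold the processed signal, with background removed by the authors' scanner software, and the median spot and local background intensity. The deposited series table holds linear signal, which matched the processed signal times 1 factor per array. Levels are log2 processed signal minus each array's 75th percentile of probes. Control and outlier-flagged spots were left out, and repeat spots were averaged. RefSeq names (GRCm38.p6, matched by transcript accession) covered 27235 of 55681 probes.

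In pairs of arrays, dim values were raised to the array's lowest signal well above background ("at least"). The additive model (limma 3.58.1, R 4.3.3) took 13553 genes that at least 3 arrays marked as well above background (4 residual degrees of freedom, 3.12 prior), and was tested on simulated data. P-values are Benjamini-Hochberg adjusted over all genes. Normexp correction (offset 50) used median in place of mean spot signal, as the mean was not used here. All members were named, with levels on all arrays for Irf7, Irf9, Stat2, Irf1 and the 14 widest-ranging members. Members, lists and tests were chosen with earlier results of these data known.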

Additional observations from a re-analysis of the deposited data

Results flagged for a closer look

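Rtp4 moved at least 2-fold in opposite directions on the moribund arrays relative to the double-mutant array, by -2.24 on MDS and 1.24 on MDS/ML, a gap of -3.49 on the log2 scale. A further 5 members lay at least 2-fold above the competitors for RUNX1S291fs cells and at least 2-fold below them for double-mutant cells. They were Oas2 (1.51 and -2.57, a gap of 4.09), Ifi44 (2.41 and -1.26, 3.67), Irf7 (1.46 and -1.72, 3.17), Oas3 (1.81 and -1.16, 2.96) and Ddx58 (1.31 and -1.0, 2.32). The competitor arrays of the same 5 genes differed by 1.15 to 1.84. With 1 array per group, none of these differences was tested.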

How the results depend on the processing

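Replicate numbers pair no arrays, since each group has 1. With recipient genotype as a replicate block over the 4 arrays of RUNX1S291fs carriers and their competitors, a setting added after seeing the data that leaves 1 residual degree of freedom, 0 members and 0 of 13553 genes were called by limma, 567 genes and 1 member at an unadjusted p under 0.05. Of 238 recomputed values, 215 met the tolerance set for them (a count within 1.5 times the main count, an effect of the same sign on the same side of the threshold). The 21 of these from the series table could hardly differ, as that table is the processed signal times 1 factor per array. Leaving out Ezh2Δ/Δ and leaving out RUNX1S291fs gave the same stage term, so these are not separate checks. The 1 value that reversed was the stage effect of Rsad2, -0.11 in place of 1.45 without the double-mutant array. Its range was -0.11 to 2.12 on leaving out 1 array at a time. The fit without the double-mutant array has no month 4 array with both genotypes, so its stage term is not the same comparison. With normexp and quantile normalization, members at least 2-fold lower numbered 3 in place of 5 for MDS/ML minus double-mutant and 1 in place of 3 for RUNX1S291fs minus its competitors, and the stage term called 2 members in place of 1 (Bst2 and Gbp3). Fewer genes were then 2-fold apart, for instance 712 higher and 629 lower for double-mutant minus WT in place of 1502 and 1117. With the mean of probes, Ezh2Δ/Δ minus WT gave 2 members higher in place of 1. Without a filter on dim genes the stage term called 0 members (adjusted p by limma 0.0785 for Gbp3, and 0.065 for Ifitm3), as more genes were then tested. Leaving out 1 array at a time, it called 0 to 1 members and from 0 (without double-mutant) to 381 (without MDS/ML) genes in place of 250, 150 without the filter and 152 among genes bright on all 8 arrays, and Gbp3's effect ran from -2.40 to -3.21. Without the dimmest array, a setting chosen after seeing the data, 13 members in place of 7 were lower on all arrays with RUNX1S291fs. Normexp correction and quantile normalization, changed together, moved the median of all genes by over 0.1 in some pairs: for MDS minus double-mutant it was -0.08 in place of -0.22, and the member median -0.49 in place of -0.91. The cause of these shifts was not tested. The number of arrays limits the precision.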
